A study of Homo sapiens with 4 samples.

Results

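Molecular chaperones bind unfolded proteins and help them reach or keep their folded state. HSP70 proteins work in cycles with J-domain proteins, which deliver clients and stimulate ATP hydrolysis, and with nucleotide exchange factors of the HSP110 and BAG families. HSP90 takes over many signalling clients from HSP70, small heat shock proteins keep unfolded proteins from aggregating, and the ring-shaped CCT complex folds actin and tubulin. Many of these genes are induced by the transcription factor HSF1 when proteins unfold, and plasma cells, which secrete immunoglobulin, are known for a heavy folding load.

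The genes described here are those in the deposited m6A peak tables whose symbols match the HSPA to HSPH, HSP90AA1, HSP90AB1, DNAJA to DNAJC, CCT and BAG1 to BAG6 name patterns. HSPA5, HSP90B1, DNAJB9, DNAJB11, DNAJC3 and DNAJC10, which serve the endoplasmic reticulum, and symbols that end in P and a number were left out. This gave 59 genes of the 12779 gene symbols with any peak, while 25 further matching names in RefSeq had none. They held 92 of 24626 peaks with shALKBH5 and 83 of 22448 peaks with shNC. RPMI-8226, an established human multiple myeloma line, was transduced with lentivirus carrying a short hairpin RNA against ALKBH5, an enzyme that removes N6-methyladenosine (m6A) from RNA, or the hairpin named shNC. Both conditions use the same line, and the labels give no other treatment. In m6A-seq, poly(A) RNA is enriched with an anti-m6A antibody (IP) and sequenced beside RNA taken before enrichment (input). Each condition had 1 IP and 1 input library, which gave 1 peak list, so no value has a replicate and no difference between conditions was tested. The tables give no read numbers, so the sequencing depth is not known. The fold of IP over input and the p of each peak are the authors' own and describe or rank peaks within 1 list. Bracketed ranges are exact 95% binomial intervals (Clopper-Pearson), counting error only.

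The name pattern takes in more than cytosolic chaperones. By textbook location, 16 of the 59 genes encode proteins of mitochondria, the endoplasmic reticulum, vesicles or the extracellular space, among them the mitochondrial chaperonin HSPD1, the mitochondrial J-protein DNAJA3 and HSPA13 of the endoplasmic reticulum. HSPG2 encodes the matrix proteoglycan perlecan, HSPB11 is listed in RefSeq as the ciliary transport gene IFT25, and HSPA7 is an HSPA6-like pseudogene, so these 3 encode no chaperone. The HSPG2 peak had fold 4.22 with shALKBH5 and 2.68 with shNC and overlaps a peak of LDLRAD2. Of 7 plasma cell markers, 6 had peaks in both lists, with SDC1 at a best fold of 14.7 with shALKBH5 and 10.1 with shNC. Of 4 T and NK cell markers, CD8A had a peak, with shALKBH5, and of 4 myeloid markers, ITGAM had peaks in both lists.

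Sequences are shown first for the starts of 3 inducible heat shock genes. HSPB1 and HSPA1B had a peak at the gene start in both lists, and HSPA1A is shown beside HSPA1B because both genes encode nearly identical proteins while no peak was listed at the HSPA1A start. Each line gives the 250 bases before the gene start from the RefSeq promoter table, GRCh38.p14, 5′ to 3′ on the gene's strand. Capitals mark a pair of heat shock factor units, GAANNTTC or TTCNNGAA, each searched on both strands, on which it reads the same; matches may overlap. The windows are chr7:76302423-76302672 for HSPB1, chr6:31827488-31827737 for HSPA1B and chr6:31815293-31815542 for HSPA1A, all on the plus strand.

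HSPB1: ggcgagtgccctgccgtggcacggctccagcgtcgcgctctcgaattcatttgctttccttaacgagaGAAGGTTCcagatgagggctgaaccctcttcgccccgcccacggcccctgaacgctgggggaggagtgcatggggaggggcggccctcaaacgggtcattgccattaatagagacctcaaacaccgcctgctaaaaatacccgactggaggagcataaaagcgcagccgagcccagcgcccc

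HSPA1B: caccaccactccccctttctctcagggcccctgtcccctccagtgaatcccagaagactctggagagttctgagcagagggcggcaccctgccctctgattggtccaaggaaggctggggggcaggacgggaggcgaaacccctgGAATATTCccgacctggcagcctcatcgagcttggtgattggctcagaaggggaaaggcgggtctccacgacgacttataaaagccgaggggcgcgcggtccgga

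HSPA1A: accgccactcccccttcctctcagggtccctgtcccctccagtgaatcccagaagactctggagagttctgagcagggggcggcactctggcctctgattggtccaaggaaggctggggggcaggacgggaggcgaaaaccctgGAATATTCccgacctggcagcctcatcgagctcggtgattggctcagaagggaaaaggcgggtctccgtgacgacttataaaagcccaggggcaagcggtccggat

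The HSPA1B and HSPA1A windows differ by 16 single-base edits over 250 bases. At HSPB1 the start peak covered the last 99 of these bases in both lists, and at HSPA1B the last 3. Of the 71 chaperone promoters in the table, 15 (21.1%) held such a pair, against 11.6% of all 35116 promoters. The HSPA1L and HSPA1A windows overlap, so the same GAATATTC was counted at both genes. All promoters outnumber the 20056 protein-coding symbols in RefSeq, and the difference in shares was not tested. A run of 3 units occurred in 3 of the 71 (4.23%), at HSPA8, HSPA6 and DNAJB6, and in 0.441% of all promoters. None of these 3 genes had a peak in that window in either list.

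The core letters of the m6A consensus, GGAC, were searched on the gene's strand from 250 bases before to 50 after the promoter's start. That start can lie inside the RefSeq gene span on which peaks were placed, as at DNAJC14 and DNAJB1. They occurred in 71.8% of the chaperone windows and in 66.3% of all windows, so their presence is common. Within these windows they lay under a listed peak at BAG3, DNAJC14 and DNAJC9. The sites are shown as 30 bases, with GGAC in capitals, to give the letters under these peaks. A match is a description and not a mapped m6A. The BAG3 site is chr10:119651399-119651428 on the plus strand, under a peak of the shNC list alone. The DNAJC14 sites are chr12:55830736-55830765, chr12:55830707-55830736 and chr12:55830495-55830524 on the minus strand, under peaks of both lists. The DNAJC9 sites, also on the minus strand, are chr10:73247476-73247505, under peaks of both lists, and chr10:73247399-73247428, under the shNC peak alone.

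BAG3: ggccaacttctctGGACtGGACcagaagtt

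DNAJC14 site 1: cgtgtgtgtggggGGACccaggttgcctac

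DNAJC14 site 2: ctgctctagtccaGGACcagagacccccaa

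DNAJC14 site 3: tggtcgggatcgtGGACcagggaaggggct

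DNAJC9 site 1: ggtaagacGGACgccagatttccagagcaa

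DNAJC9 site 2: tgcgcgcggccggGGACtgtgactccacat

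Chaperone symbols were listed more often than protein-coding symbols at large. Of the 79 protein-coding symbols in RefSeq that match the pattern, 54 had a peak with shALKBH5, or 68.4% (56.9 to 78.4%), against 45.8% of all protein-coding symbols. With shNC it was 53, or 67.1% (55.6 to 77.3%), against 43.2%, and in either list 57, or 72.2% (60.9 to 81.7%), against 47.7%. These shares match current RefSeq symbols exactly, so a gene listed under an older symbol, as HSPB11 is, counts as having no peak. How far this lowers the share of all protein-coding symbols was not tested. The tables hold no expression level, so the part of expression in these shares was not tested.

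Most chaperone genes with a peak had one in both lists: 51 of 59, or 86.4% (75 to 94%), where the share over all genes with a peak was 83%. Another 5 genes (8.47%) stood in the shALKBH5 list alone, against a background of 11.5%, and 3 (5.08%) in the shNC list alone, against 5.5%. These shares lie near those of all genes. The family counts given below rest on few genes and were not tested. Their background is the same 83% in both lists and the 47.7% of protein-coding symbols with a peak in either list. The number with shALKBH5 alone was 8 when a fold of at least 2 times the lowest of the list was required. It was 2 without genes that have named pseudogenes or stand on a fixed list of paralogs.

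A peak was given a partner when its blocks had 1 base or more in common with those of a peak from the other list, on either strand. With shALKBH5, 17 of 92 chaperone peaks had no partner, or 18.5% (11.1 to 27.9%), where 19.8% of all peaks of that list had none. With shNC, 7 of 83 had none, or 8.43% (3.46 to 16.6%), where the background was 12.6%. Both intervals hold the share of all peaks. Under a reciprocal overlap of 50% the numbers without a partner were 24 with shALKBH5 and 14 with shNC. Chaperone peaks without a partner had a median log10 p of -5.39 with shALKBH5 and -5.29 with shNC, where over all such peaks it was -4.32 with shALKBH5 and -4.21 with shNC. The strongest of them reached -15.3 in each list. Those with a partner had a median log10 p of -19.8 with shALKBH5 and -21.4 with shNC, where over all such peaks it was -23.5 with shALKBH5 and -21.3 with shNC.

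**Figure D1:**
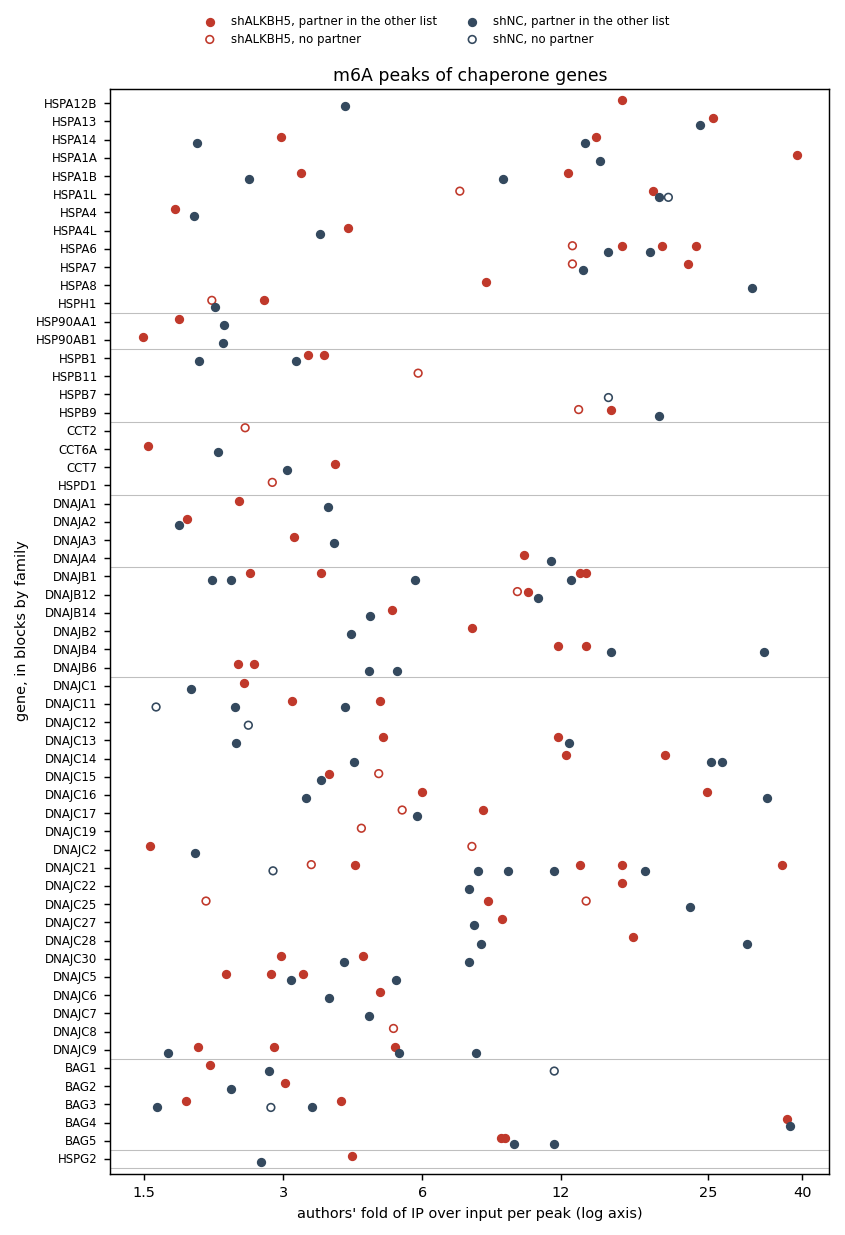
Authors' fold of IP over input (log axis) of every peak of the 59 chaperone genes, in blocks by family, with shALKBH5 above shNC in each row; filled points have a partner in the other list and open points have none. The HSP90 rows lie between 1.49 and 2.23, while HSPA1A, BAG4 and DNAJC21 reach 36.2 to 38.9 with shALKBH5.

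Among the HSP70 and HSP110 genes, 12 of 15 were listed, each of them under both conditions, and HSPA2, HSPA9 and HSPA12A had no peak. The median fold of these peaks was 12.7 with shALKBH5 and 13.4 with shNC. HSPA8, the constitutive HSP70 of the cytosol, had the strongest chaperone peak by p, at its gene end on chromosome 11, 123057489 to 123057758 with shALKBH5 and 123057489 to 123057818 with shNC. Its log10 p was -2720 with shALKBH5, ranking 16 in that list, and -4480 with shNC, ranking 11. Its fold was 8.25 with shALKBH5, at percentile 58.4 of that list, and 31.1 with shNC, at percentile 97.1. The scaling of IP to input was not stated, so a gap between folds of the lists is no measured change. RefSeq holds 20 pseudogenes named after HSPA8, and the assignment of its reads is uncertain.

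HSPA1A and HSPA1B encode nearly identical stress-inducible HSP70 proteins, so the split of reads between them is uncertain. HSPA1A had a single peak with the same borders in both lists, at its gene end on chromosome 6, 31817468 to 31817707. Its fold was 38.9 with shALKBH5, the highest of the chaperone peaks there, and 14.6 with shNC. Its log10 p was -36.6 with shALKBH5 and -37.5 with shNC, so p stayed close while the listed folds stood apart. HSPA1B had a gene-end peak at 31829514 to 31830077 in both lists, with fold 12.4 and log10 p -507 with shALKBH5, and fold 8.96 and log10 p -587 with shNC. It overlaps a peak assigned to AL671762.1. Its start peak had fold 3.27 and log10 p -25.9 with shALKBH5, and fold 2.53 and log10 p -18.5 with shNC. The pair thus had end peaks at both genes and a start peak at HSPA1B.

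HSPA6, another inducible HSP70, had 4 peaks with shALKBH5 and 2 with shNC. The shNC peak at 161525962 to 161526762 shared bases with 2 of the shALKBH5 peaks, so these numbers do not count separate places. The HSPA6 folds ran from 12.7 to 23.5 with shALKBH5 and were 15.2 and 18.7 with shNC. Their log10 p ran from -4.08 to -8.88 with shALKBH5 and was -7.24 and -12.2 with shNC. The HSPA6 peak without a partner lay at chromosome 1, 161525073 to 161525192, at fold 12.7. HSPA7, the pseudogene, had peaks of fold 12.7 and 22.6 with shALKBH5, the first without a partner, and 1 of fold 13.4 with shNC. HSPA6 and HSPA7 stand on the fixed list of paralogs, so the assignment of their reads is uncertain. HSPA1L, a testis-enriched HSP70 gene beside HSPA1A, had peaks of fold 7.24 and 19 with shALKBH5 and of 20.5 and 19.6 with shNC. The first of each pair had no partner, at log10 p -2.98 with shALKBH5 and -5.29 with shNC. Peaks with a fold of 10 or more and a log10 p of -10 or weaker were 16.3% of chaperone peaks with shALKBH5, against 12.7% of all peaks, and 10.8% with shNC, against 12.4%, so such peaks were about as common as in the lists.

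HSPA13 had a spliced peak with the same borders in both lists, on chromosome 21, 14373691 to 14375717. Its fold was 25.6 and its log10 p -694 with shALKBH5, and with shNC they were 24 and -811. HSPA14, a ribosome-associated HSP70, had at its stronger peak fold 14.3 and log10 p -408 with shALKBH5, and fold 13.5 and log10 p -410 with shNC. That peak lay 4130 bp inside the gene start and 27707 bp from the gene end. Whether it comes from the HSP70 transcript was not tested. The values of both genes lay close together in the lists. HSPA12B, a distant HSP70 relative of endothelial cells, had fold 16.3 with shALKBH5 and 4.08 with shNC. Its log10 p was weaker than at those genes, at -9.01 with shALKBH5 and -4.22 with shNC.

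Among the HSP110 exchange factors, HSPA4 had a peak of fold 1.75 with shALKBH5 and 1.92 with shNC, and HSPA4L one of 4.15 with shALKBH5 and 3.61 with shNC. HSPH1, the main inducible HSP110, had a peak with equal borders in both lists at chromosome 13, 31161525 to 31161705, with fold 2.72 with shALKBH5 and 2.13 with shNC. Another HSPH1 peak, 31137251 to 31137461, stood with shALKBH5 alone, at fold 2.1 and log10 p -11.6. All HSP110 folds were below 5.

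Both HSP90 genes had 1 peak per list, with a fold of 2.23 or less. They were counted among the genes with paralogs or named pseudogenes, so the assignment of their reads is uncertain. HSP90AB1, the constitutive isoform, had fold 1.49 and log10 p -96 with shALKBH5, and fold 2.22 and log10 p -502 with shNC. HSP90AA1, the inducible isoform, had fold 1.78 and log10 p -133 with shALKBH5, and fold 2.23 and log10 p -383 with shNC. The HSP90AB1 fold stood at percentile 1.31 with shALKBH5 and 10.3 with shNC, and its p, by strength, at 83.2 with shALKBH5 and 97.3 with shNC. For HSP90AA1 the fold stood at percentile 4.14 with shALKBH5 and 10.4 with shNC, and the p at 87.6 with shALKBH5 and 96.2 with shNC. Peaks with a fold under 4 and a log10 p below -100 were 3 of 92 chaperone peaks with shALKBH5, or 3.26% (0.678 to 9.23%), against 1.19% of all peaks, and belonged to HSP90AA1, BAG2 and DNAJA1. With shNC they were 4 of 83, or 4.82% (1.33 to 11.9%), against 1.28%, and belonged to both HSP90 genes, DNAJA1 and DNAJA3.

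**Figure D2:**
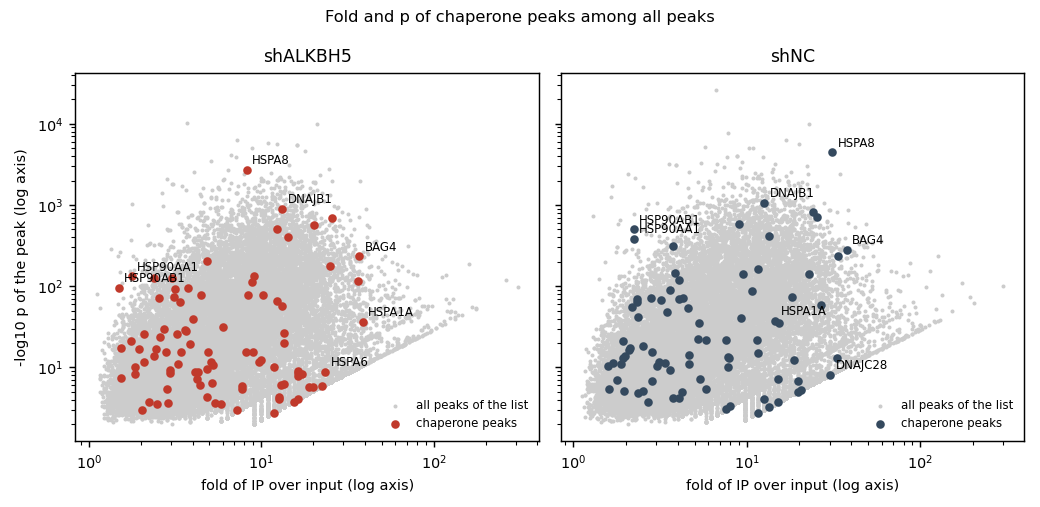
Fold of IP over input (x, log axis) against -log10 p (y, log axis) of each peak as the authors give them, with shALKBH5 at the left and shNC at the right; grey points are all peaks of the list and coloured points chaperone peaks, with some genes named. HSPA8 is the highest chaperone point in both lists, both HSP90 genes lie at folds of 1.49 to 2.23, and HSPA6 (23.5 with shALKBH5) and DNAJC28 (30.3 with shNC) lie at high folds with weak p.

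Of 8 small heat shock genes, 4 had peaks, and HSPB2, HSPB3, HSPB6 and HSPB8 had none. HSPB1, which encodes HSP27, had its start peak at chromosome 7, 76302574 to 76302722 with shALKBH5 and 76302574 to 76302692 with shNC. That peak had fold 3.4 and log10 p -64 with shALKBH5, and fold 3.19 and log10 p -68.5 with shNC. The other HSPB1 peak, towards the gene end, had fold 3.68 with shALKBH5 and 1.97 with shNC. HSPB1 was thus listed at the same 2 places under both conditions. HSPB7, a heart and muscle protein, had a peak in the shNC list alone, at fold 15.2 and log10 p -3.75. HSPB11 (IFT25) had one with shALKBH5 alone, at fold 5.88 and log10 p -3.53. HSPB9, known from testis, had an upstream peak of fold 15.4 with shALKBH5 and 19.6 with shNC. Its start peak, chromosome 17, 42122672 to 42122968, stood with shALKBH5 alone at fold 13.1 and log10 p -6.06.

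Of 11 protein-coding chaperonin genes, 4 had a peak in either list, or 36.4% (10.9 to 69.2%), an interval that holds the 47.7% of all protein-coding symbols. Of the CCT subunit genes, CCT2, CCT6A and CCT7 had one, and CCT3, CCT4, CCT5, CCT6B and CCT8 had none in either list. RefSeq names pseudogenes after CCT3, CCT4, CCT5, CCT7 and CCT8, so their reads are uncertain too. CCT7 had a spliced start peak with the same borders in both lists, chromosome 2, 73234292 to 73235636, at fold 3.89 with shALKBH5 and 3.05 with shNC. CCT6A had a gene-end peak of fold 1.53 with shALKBH5 and 2.17 with shNC. CCT2 had a start peak in the shALKBH5 list alone, at fold 2.48 and log10 p -3.55. HSPD1, the mitochondrial HSP60, likewise had a start peak with shALKBH5 alone, at fold 2.84 and log10 p -5.39, while its cofactor HSPE1 had none. RefSeq names 22 pseudogenes after HSPD1, so its reads are uncertain. Every chaperonin fold was below 4.

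All 4 class A J-domain genes had 1 peak in each list. DNAJA1, a main HSP70 partner of this class, had a gene-end peak of fold 2.4 and log10 p -128 with shALKBH5, and of fold 3.75 and log10 p -312 with shNC. RefSeq names 6 pseudogenes after DNAJA1. DNAJA4 had the highest folds of the class, 9.95 with shALKBH5 and 11.4 with shNC. DNAJA2 had 1.86 with shALKBH5 and 1.78 with shNC, and DNAJA3 had 3.16 with shALKBH5 and 3.87 with shNC.

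In class B, 6 of 11 genes were listed under both conditions, and DNAJB3, DNAJB5, DNAJB7, DNAJB8 and DNAJB13 had no peak. DNAJB1, the inducible HSP40, had 4 peaks in each list. Its strongest, at the gene end on chromosome 19, 14515725 to 14516053 with shALKBH5 and 14515725 to 14516083 with shNC, had fold 13.2 and log10 p -899 with shALKBH5, and fold 12.6 and log10 p -1070 with shNC. It ranked 204 by p with shALKBH5 and 157 with shNC, next among chaperone peaks after HSPA8. The remaining DNAJB1 peaks had folds of 2.54, 13.6 and 3.62 with shALKBH5 and of 2.31, 5.8 and 2.1 with shNC, and the last overlaps a peak of the neighbour TECR. All 4 DNAJB1 peaks thus had a partner.

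DNAJB6, which restrains aggregation of polyglutamine proteins, had peaks of fold 2.39 and 2.59 with shALKBH5 and of 4.6 and 5.28 with shNC. RefSeq names 8 pseudogenes after it. DNAJB4 had peaks of fold 11.8 and 13.6 with shALKBH5 and of 33 and 15.4 with shNC. DNAJB12, a membrane protein of the endoplasmic reticulum, had a peak of fold 10.2 with shALKBH5 and 10.7 with shNC, and another with shALKBH5 alone at fold 9.65 and log10 p -11.7. DNAJB14 had 5.15 with shALKBH5 and 4.62 with shNC, and DNAJB2 had 7.69 with shALKBH5 and 4.21 with shNC.

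Class C is the largest and most varied group, with 21 of 24 genes listed, where 47.7% of all protein-coding symbols were. Of these, 17 stood under both conditions, where the share over all genes with a peak was 83%. DNAJC4, DNAJC18 and DNAJC24 had no peak. DNAJC21, a ribosome biogenesis factor, had 5 peaks in each list, the most of any chaperone gene. Its 4 peaks with a partner had folds of 36.2, 4.3, 13.2 and 16.3 with shALKBH5 and of 18.2, 7.93, 9.22 and 11.6 with shNC. The remaining peak lay at the gene start with shALKBH5, chromosome 5, 34929619 to 34929888, at fold 3.45, and inside the gene with shNC, 34937440 to 34941143, at fold 2.85. Both had a log10 p of -15.3.

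DNAJC14, a membrane protein of the endoplasmic reticulum, had at its strongest peak fold 20.2 and log10 p -569 with shALKBH5, and fold 25.3 and log10 p -719 with shNC. Its start peak, which overlaps a peak of TMEM198B and holds the printed DNAJC14 sites, had fold 12.3 with shALKBH5 and 26.8 with shNC. DNAJC16 had fold 24.9 and log10 p -178 with shALKBH5, and fold 33.6 and log10 p -238 with shNC. These were strong peaks under both conditions. DNAJC28 had fold 17.2 and log10 p -8.36 with shALKBH5, and at its stronger peak fold 30.3 and log10 p -8.18 with shNC. DNAJC25 had a peak of fold 8.33 with shALKBH5 and 22.8 with shNC, and 2 peaks with shALKBH5 alone. Those lay at the start, with fold 13.6 and log10 p -6.21, and near the end, with fold 2.04 and log10 p -3. The DNAJC25 start peak overlaps a peak of the readthrough gene DNAJC25-GNG10.

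Some class C genes stood in 1 list. DNAJC8, a splicing-associated J-protein, had a start peak with shALKBH5 alone at fold 5.2 and log10 p -6.35, and DNAJC19 of the mitochondrial import motor one at fold 4.43 and log10 p -6.15. RefSeq names 3 pseudogenes after DNAJC8 and 9 after DNAJC19, so the reads of both are uncertain. DNAJC12, a co-chaperone of aromatic amino acid hydroxylases, had a peak in the shNC list alone at fold 2.52 and log10 p -5.15. DNAJC7, a J-protein with TPR repeats that binds HSP70 and HSP90, was named in the shNC list alone, at chromosome 17, 41976433 to 41976523, fold 4.61 and log10 p -11.1. That interval shares bases with an shALKBH5 peak assigned to the neighbour CNP, so a peak was listed there under both conditions.

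Other class C genes had an added peak in 1 list. DNAJC2, which acts at the ribosome, had a start peak with shALKBH5 alone at fold 7.69 and log10 p -5.42, beside a peak of fold 1.54 with shALKBH5 and 1.93 with shNC. Peaks inside the gene with shALKBH5 alone were at DNAJC15, at fold 4.83 and log10 p -4.36, and at DNAJC17, at fold 5.43 and log10 p -3.62. DNAJC11, of mitochondria, had peaks of fold 3.13 and 4.87 with shALKBH5 and of 2.36 and 4.08 with shNC, and another with shNC alone at fold 1.59. All of these overlap peaks of the neighbour THAP3.

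The remaining class C genes were listed under both conditions with a partner for every peak. DNAJC9, which also chaperones histones, had peaks of fold 1.96, 2.87 and 5.25 with shALKBH5 and of 1.69, 5.35 and 7.83 with shNC. The first of each overlaps a peak of the neighbour FAM149B1, and the others lie upstream of the RefSeq gene start, as do the printed DNAJC9 sites. DNAJC5, the cysteine string protein of vesicles, had 2.25, 3.31 and 2.82 with shALKBH5 and 5.26 and 3.11 with shNC. DNAJC13, an endosomal protein, had a start peak of fold 11.8 with shALKBH5 and 12.5 with shNC, at a weak log10 p of -2.78 with shALKBH5 and -4.1 with shNC. Its other peak, inside the gene, had fold 4.94 and log10 p -15.7 with shALKBH5, and fold 2.37 and log10 p -4.89 with shNC. The best folds of DNAJC1, DNAJC6, DNAJC22, DNAJC27 and DNAJC30 ran from 2.46 to 16.3 with shALKBH5 and from 1.89 to 7.77 with shNC. The 16.3 was at DNAJC22, at a weak log10 p of -4.06, where shNC had fold 7.58 and log10 p -3.07. The best DNAJC30 folds, 4.47 with shALKBH5 and 7.58 with shNC, came from different peaks, and the shNC one overlaps a peak of BUD23.

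BAG proteins bind HSP70 and release its nucleotide; 5 of 6 were listed under both conditions, and BAG6 had no peak. BAG4 had a single wide peak on chromosome 8, 38210106 to 38210972 with shALKBH5 and 38210016 to 38211061 with shNC. It had fold 37.1 and log10 p -235 with shALKBH5, and fold 37.7 and log10 p -282 with shNC, where its fold was the highest of the chaperone peaks. BAG5 had peaks of fold 9.06 and 8.9 with shALKBH5 and of 9.48 and 11.6 with shNC, and BAG2 had 1 of 3.03 with shALKBH5 and 2.31 with shNC. BAG3, an inducible member that links HSP70 to selective autophagy, had its strongest peak at the gene end, at fold 4 with shALKBH5 and 3.46 with shNC, and a nearby one at 1.85 with shALKBH5 and 1.6 with shNC. Its start peak, which holds the printed BAG3 site, stood with shNC alone at fold 2.82 and log10 p -6.72. BAG1 had a start peak of fold 2.08 and log10 p -25.8 with shALKBH5, and of fold 2.8 and log10 p -71.4 with shNC. Another BAG1 peak, with shNC alone, lay past the RefSeq gene end at fold 11.6 and log10 p -2.75.

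Peaks were placed on RefSeq gene spans. A start peak had its 5′ edge upstream or under 500 bp inside the gene; of the others, an end peak had its 3′ edge under 1000 bp from the gene end. Starts held 15 of 89 placed chaperone peaks with shALKBH5, or 16.9% (9.75 to 26.3%), against a background of 14.5%. With shNC it was 9 of 79, or 11.4% (5.34 to 20.5%), against 11.4%. Ends held 19 with shALKBH5, or 21.3% (13.4 to 31.3%), against 22.1%, and 21 with shNC, or 26.6% (17.3 to 37.7%), against 23%. These shares are close to those of all peaks.

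Of the 17 shALKBH5 peaks without a partner, 8 lay at a gene start, or 47.1% (23 to 72.2%), where the share over all such peaks was 27.1%. They belonged to CCT2, HSPD1, HSPB9, DNAJC2, DNAJC8, DNAJC19, DNAJC21 and DNAJC25, with folds from 2.48 to 13.6 and log10 p from -3.55 to -15.3. With shNC, 1 of 6 placed peaks without a partner did, at BAG3, or 16.7% (0.421 to 64.1%), where the background was 12.7%. Both intervals hold the background share.

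**Figure D3:**
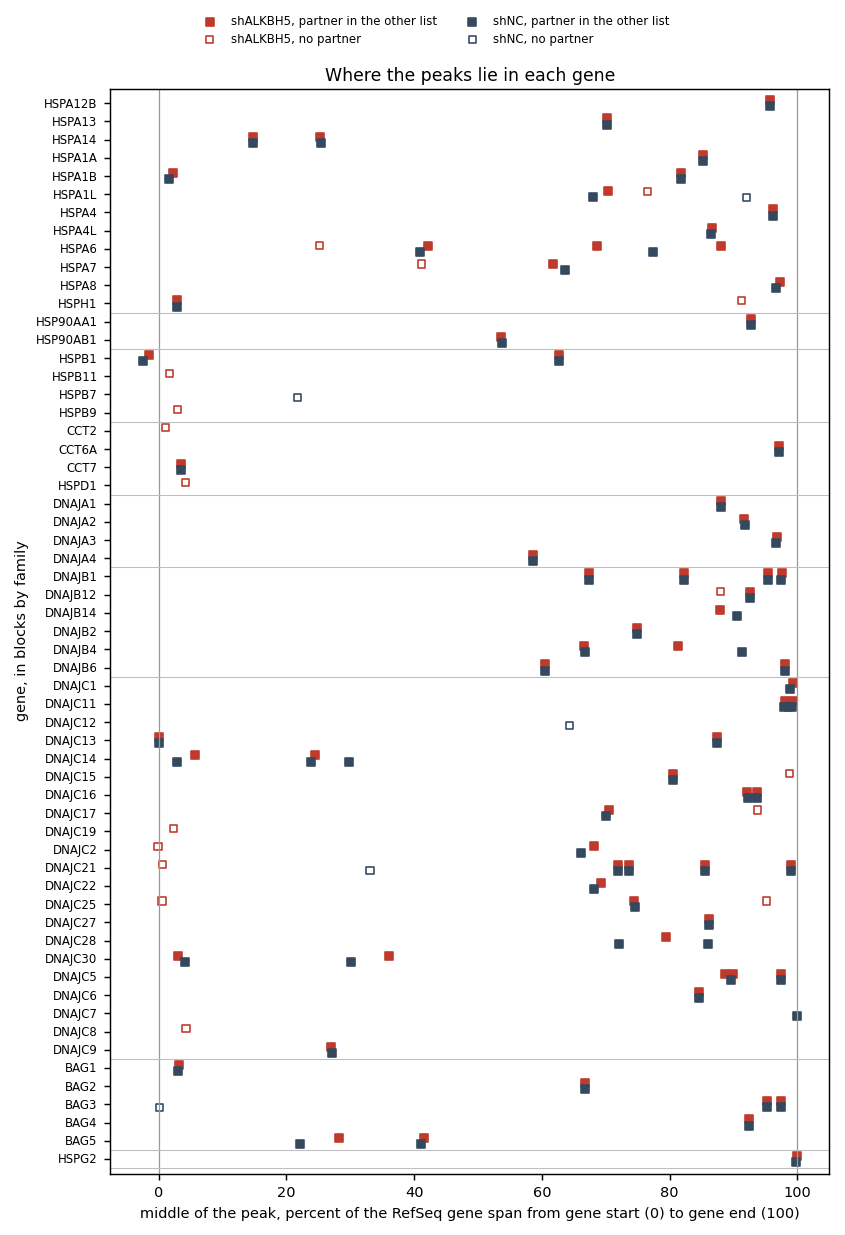
Middle of each placed peak along the RefSeq gene span, from gene start (0) to gene end (100 percent), for each chaperone gene in blocks by family, with shALKBH5 above shNC; filled squares have a partner and open squares have none. Of the 17 open shALKBH5 squares, 8 are start peaks.

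The median fold of chaperone peaks lay below that of all peaks in both lists, with no test. It was 5.18 with shALKBH5 and 4.62 with shNC, where over all peaks it was 6.64 with shALKBH5 and 6.54 with shNC. The median log10 p lay closer, at -15.4 with shALKBH5 and -16.3 with shNC, where over all peaks it was -15.3 with shALKBH5 and -15.8 with shNC. A fold of 10 or more was reached by 32.6% of chaperone peaks with shALKBH5 and 32.5% with shNC, where the background was 33.7% in each list. A log10 p below -100 was reached by 16.3% with shALKBH5, against 16.1%, and by 19.3% with shNC, against 16.7%. Chaperone genes had fewer peaks each, on average 1.64 with shALKBH5 and 1.54 with shNC, where all genes had 2.04 with shALKBH5 and 1.99 with shNC.

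**Figure D4:**
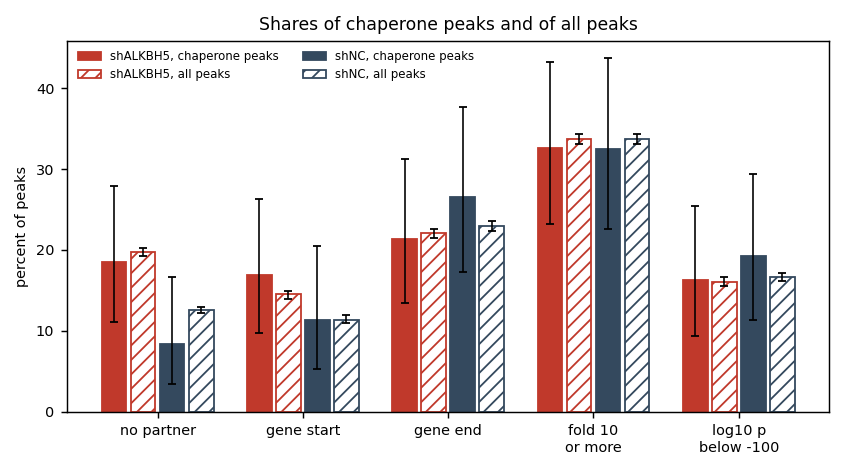
Percent of chaperone peaks (filled bars) and of all peaks (hatched bars) without a partner, at gene starts, at gene ends, with a fold of 10 or more and with a log10 p below -100, with shALKBH5 left of shNC; error bars are exact 95% binomial intervals over peaks. Each chaperone interval holds the share of all peaks of its list, for example 11.1 to 27.9% against 19.8% for peaks without a partner with shALKBH5.

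Of 40 other genes of the chaperone pathway, 29 had peaks in both lists, 1 with shALKBH5 alone and 1 with shNC alone. Over all protein-coding symbols, 47.7% had a peak in either list. Over all genes with a peak, 83% stood in both lists, 11.5% with shALKBH5 alone and 5.5% with shNC alone. No difference from these shares was tested. HSPBP1, an HSP70 exchange factor, had 2 peaks with shALKBH5 alone, at a best fold of 10.9 and a best log10 p of -5.82. PDCL3, a CCT cofactor, had 1 with shNC alone at fold 3.9 and log10 p -18.9. HSF1 had 3 peaks in each list, at a best fold of 6.83 with shALKBH5 and 5.05 with shNC. STIP1, which bridges HSP70 and HSP90, had a best fold of 8.14 with shALKBH5 and 10.3 with shNC, and the HSP90 activator AHSA1 had 4.18 with shALKBH5 and 4.08 with shNC. The 9 genes with no peak were TCP1, which is the CCT subunit outside the name pattern, PFDN4, PFDN5, PPID, CHORDC1, ST13, TTC5, HSCB and CRYAB.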

How the data were processed

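Poly(A) RNA of RPMI-8226 cells gave 1 IP and 1 input library for each of shALKBH5 and shNC. The tools fastp (0.19.11), BWA (0.7.12) and HOMER (4.9.1) and the build hg38 appear, without roles, in the submitters' processing notes; the sources used here do not give the peak caller. Per the file headers, the authors deposited for each peak a fold, the ratio of IP over input, a p-value in a column named score, and its log10, read here as a score without fixed range because it passes -100. In the log10 p column, 1 shALKBH5 and 2 shNC cells held a spreadsheet error and were ranked strongest. The lowest deposited folds were 1.11 with shALKBH5 and 1.12 with shNC.

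BED starts were converted to 1-based positions. Genes were counted by symbol. Spans and promoters came from RefSeq (GRCh38.p14), matched by symbol or by an older symbol if unique and on that chromosome. The sources used here do not say if the libraries are stranded, so neighbours on opposite strands cannot be told apart: 9 shALKBH5 and 10 shNC chaperone peaks overlap a peak of another gene. Members, lists and measures were chosen with earlier results of these data known. Genes given with values were those in 1 list alone or with a peak lacking a partner, the 6 with the highest fold and the 4 with the most peaks in each list, ties included, and a fixed set of main chaperones; the remaining genes were added after their values were seen. Partner and position calls were tested on simulated data. Python 3.11.15, pandas 2.3.3, numpy 2.4.6, SciPy 1.17.1 and matplotlib 3.10.9 were used. Alternatives changed the fold minimum, list length, partner rule, start and end distances, and membership.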

Additional observations from a re-analysis of the deposited data

How the results depend on the processing

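Of 87 alternative values for 15 counts, 74 stayed within 1.5 times the reported count and 13 did not. Members that have named pseudogenes or stand on a fixed list of paralogs were left out, with sequence identity not measured. The shALKBH5 list then held 35 genes, 33 in both lists and 2 in that list alone. There were 47 shALKBH5 and 49 shNC peaks with a partner and 8 shALKBH5 peaks without one, with fewer genes by construction. Without members outside the cytosol, 3 genes stood with shALKBH5 alone and 11 shALKBH5 peaks had no partner. At a fold of at least 2 times the lowest, 8 genes stood with shALKBH5 alone. They took in DNAJC1, DNAJC2 and HSPH1, whose best shNC folds of 1.89, 1.93 and 2.13 fell below that minimum. With reciprocal overlap of 50%, 14 shNC peaks had no partner, since the rule asks for more. Gene-end peaks numbered 36 with shALKBH5 and 32 with shNC within 2000 bp, and 12 with shNC within 500 bp. Leaving out HSPG2, HSPA7 and HSPB11, chosen after the data were seen, kept each count within 1.5 times. Depth is unknown and there are no replicates, so no spread between cultures can be given. No paired analysis was possible because each condition has 1 list.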
